A study of Mus musculus with 10 samples.

Results

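The osteoblast and mineralization genes described here were 9 of the 15078 genes in the table: Runx2, Sp7, Alpl, Phex, Ibsp, Spp1, Dmp1, Bglap and Bglap2. They were chosen by gene symbol and read in all 10 libraries. RNA sequencing had been done on mouse skeletal cells sorted as CD51+CD200+ and lacking CD45, Ter119 and CD31, in 3 groups. BM-MSCs (n = 3) were mesenchymal stem cells from the marrow of untreated wild-type mice at steady state, and P-SSCs (n = 3) were skeletal stem cells from the periosteum, which wraps the bone, of such mice. The sample titles call these samples host as well as steady state, and do not say whether the mice carried a graft. Graft BM-MSCs (n = 4) were mesenchymal stem cells from the marrow of femurs of transgenic POSTN-CRE mice, 5 months after the femurs had been placed in wild-type hosts that then received tamoxifen. In these femurs tamoxifen makes cells that use Postn (periostin) turn on the red protein Tomato, and the sorted cells were Tomato+. Postn is also used by osteoblasts and fibroblasts. Genotype, tamoxifen, surgery and, with the 5 months in the host, the age of the bone all differ between graft and untreated mice. The labels give no age, and per the methods mice were in general young adults when used. The BM-MSC 2+4 and P-SSC 2+5 libraries each combined RNA of a pair of mice and counted as 1 replicate.

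Bone is made by osteoblasts, which descend from skeletal stem and progenitor cells. Runx2 and then Sp7 (osterix) are the transcription factors that commit cells to this lineage. Committed cells secrete a collagen matrix and the enzyme encoded by Alpl, tissue-nonspecific alkaline phosphatase, which removes the mineralization inhibitor pyrophosphate. Ibsp, Spp1 and Dmp1 encode acidic phosphoproteins that bind the mineral and belong to the SIBLING family, Bglap and Bglap2 encode osteocalcin, and Dmp1 and Phex are typical of osteocytes, the osteoblasts enclosed in bone. The question behind the comparison is whether cells that moved from the periosteum into the marrow carry the bone-forming programme of marrow stroma or that of the periosteum.

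Gene clusters hold 5 of the members. By GENCODE M21 on GRCm38, Dmp1 (ENSMUSG00000029307, chr5:104202613-104214102), Ibsp (ENSMUSG00000029306, chr5:104299171-104311469) and Spp1 (ENSMUSG00000029304, chr5:104435118-104441050) lie in a row on the plus strand of chromosome 5. Bglap (ENSMUSG00000074483, chr3:88383501-88384464) and Bglap2 (ENSMUSG00000074486, chr3:88377736-88378699) lie side by side on the minus strand of chromosome 3. The other members stand alone, namely Runx2 (ENSMUSG00000039153, chr17:44495987-44814797, minus strand), Sp7 (ENSMUSG00000060284, chr15:102356606-102367182, minus strand), Alpl (ENSMUSG00000028766, chr4:137741733-137796384, minus strand) and Phex (ENSMUSG00000057457, chrX:157162075-157415312, minus strand). All 9 are protein-coding.

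Since Runx2 is both a member and a DNA-binding factor, the 250 bases before the RefSeq start site (GRCm38.p6) were searched for its core motif, TGTGGT or ACCACA on the other strand. Promoters were at hand for 7 of the 9 members, and Sp7 and Bglap2 are named only. The motif was found in 4 of the 7, those of Spp1 (128 bases before the start), Bglap (132), Dmp1 (164) and Runx2 (80), and in 14% of 32851 promoters of the same length. The RefSeq start lies 170 bases inside the GENCODE gene for Runx2 and 116 bases inside it for Ibsp. The match of Runx2 is therefore within the gene as GENCODE draws it. The homeodomain core TAATTA, which reads alike on both strands, was found in 0 of the 7 and in 4.84% of all promoters. A match of letters is a description and not evidence of binding, and the 7 windows are too few to compare with the share over all genes. The promoters of a matrix gene from each cluster and of the osteocyte gene Dmp1 are printed 5′ to 3′ on the strand of the gene, with the motif in capitals. They cover chr5:104434861-104435110 (plus strand) for Spp1, chr3:88384467-88384716 (minus strand) for Bglap and chr5:104202367-104202616 (plus strand) for Dmp1.
Spp1: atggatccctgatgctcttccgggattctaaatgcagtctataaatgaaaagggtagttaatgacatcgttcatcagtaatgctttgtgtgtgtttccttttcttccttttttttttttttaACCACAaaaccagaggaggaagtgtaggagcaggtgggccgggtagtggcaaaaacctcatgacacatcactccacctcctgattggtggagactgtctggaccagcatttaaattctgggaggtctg
Bglap: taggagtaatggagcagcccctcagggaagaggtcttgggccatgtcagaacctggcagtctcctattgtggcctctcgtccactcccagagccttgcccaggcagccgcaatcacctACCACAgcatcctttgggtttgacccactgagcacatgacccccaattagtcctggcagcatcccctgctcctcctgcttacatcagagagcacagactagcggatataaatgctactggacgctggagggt
Dmp1: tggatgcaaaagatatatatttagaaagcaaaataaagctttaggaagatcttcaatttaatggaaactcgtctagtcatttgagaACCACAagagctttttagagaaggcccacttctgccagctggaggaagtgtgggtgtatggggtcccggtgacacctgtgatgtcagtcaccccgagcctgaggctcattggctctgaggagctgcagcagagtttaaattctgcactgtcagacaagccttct

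Between 15415421 and 25223295 reads were assigned to genes per library. Values are normalized read counts, a library's reads per gene divided by its size factor, and 3 reads, taken as the smallest detectable amount, corresponded to 0.119 to 0.195 ppm of the reads (counting error only). The labels were checked against marker genes. The summed value of 4 marrow stroma genes (Cxcl12, Lepr, Kitl and Adipoq) ranged from 663311 to 1130906 over both marrow groups and from 4505 to 8842 in P-SSCs, while 4 periosteal matrix genes summed to 222769 to 412687 in P-SSCs and at most 9201 in marrow. Libraries differed in how they kept GC-rich genes: all graft libraries and P-SSC 4 had them high, and the other 5 libraries had them low. This split compares the median deviation of 51 genes over 65% GC with that of 6033 genes of 50 to 60% GC. The 9 members, at 39.6% to 56.5% GC, are outside the GC-rich class. For graft BM-MSCs against BM-MSCs this split and the group cannot be told apart. Graft libraries also had more genes listed at 0 (29.5% ± 6.64, SD, n = 4) than BM-MSCs (14.2% ± 2.37, SD, n = 3) or P-SSCs (15.3% ± 3.18, SD, n = 3), and the median gene was 0.53 lower on the log2 scale in graft BM-MSCs than in BM-MSCs and 0.47 lower than in P-SSCs. None of the 9 members was at 0 in any library, the lowest being Dmp1 with 20 reads in P-SSC 4.

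Together the 9 genes took 2.89% ± 0.428 (SD, n = 3) of the reads in BM-MSCs, 0.173% ± 0.0540 (SD, n = 3) in P-SSCs and, in between, 1.41% ± 0.174 (SD, n = 4) in graft BM-MSCs, and the groups did not overlap. In a bulk library, fewer cells of a type and less RNA per cell cannot be told apart. Per kilobase of exon, Spp1 had the highest level in both marrow groups (mean 174080 in BM-MSCs and 83027 in graft BM-MSCs), above every other member in every library. In P-SSCs the order began with Bglap (15398 per kilobase), Bglap2 (11839) and Spp1 (9896), whose library ranges overlapped. Ibsp was next to Spp1 in BM-MSCs (78853), close to Bglap (74450) with overlapping ranges, but it was far below both osteocalcin genes in P-SSCs (1051). Alpl followed Spp1, Ibsp, Bglap and Bglap2 in all 3 groups, at 5549, 2157 and 649 per kilobase in BM-MSCs, graft BM-MSCs and P-SSCs. Runx2, a transcription factor, had the lowest mean in all 3 groups, at 62.5, 151 and 3.32. In graft BM-MSCs the ranges of Dmp1, Sp7, Phex and Runx2 overlapped one after the next, and within each of the 4 libraries Dmp1 was above Sp7.

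**Figure D1:**
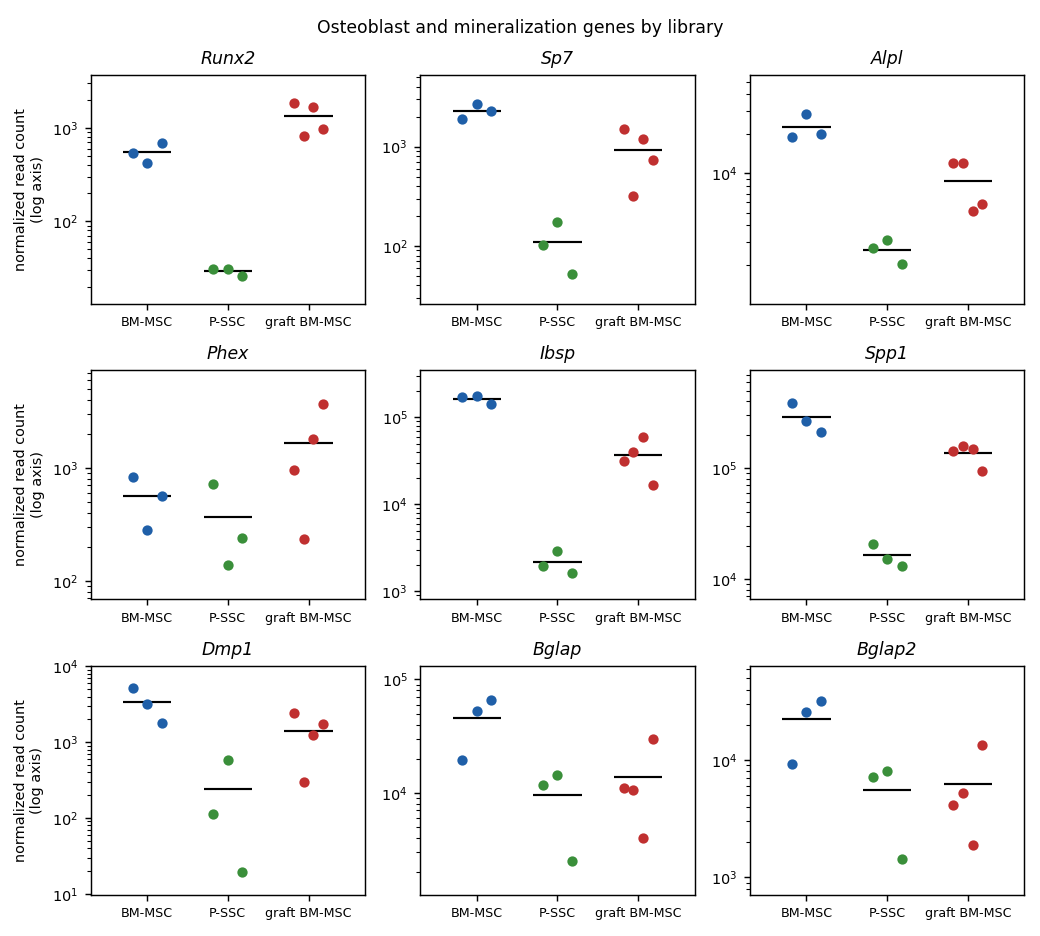
Normalized read count of each of the 9 genes (vertical log axis) in the 10 libraries, with 1 point per library, coloured by group, and a black line at the group mean. Ibsp and Spp1 form 3 separate levels with P-SSCs lowest and BM-MSCs highest, Runx2 is highest in graft BM-MSCs, and Bglap, Bglap2 and Phex of P-SSCs and graft BM-MSCs overlap.

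Of the regulators, Runx2 had the largest rise from P-SSCs to graft BM-MSCs among the 9 genes. Its values were 31.2, 30.6 and 26.2 in P-SSC 1, 2+5 and 4, then 539.9, 419.7 and 697 in BM-MSC 1, 2+4 and 3, and 1868, 823, 1676 and 977 in graft BM-MSC 1 to 4. Every graft library was above every BM-MSC library, and every BM-MSC library above every P-SSC library. Runx2 was 41.7-fold higher in graft BM-MSCs than in P-SSCs (log2 difference 5.38, SE 0.47, limma, adjusted p = 4.65e-05). Its excess over BM-MSCs, a log2 difference of 1.22 (SE 0.47), did not pass (limma, adjusted p = 0.135), and of 22 other settings it passed in 1, DESeq2 on the recovered reads.

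Sp7 acts downstream of Runx2 and followed another order. It measured 1888, 2663 and 2287 in BM-MSC 1, 2+4 and 3, then 1495, 316, 1190.3 and 731 in graft BM-MSC 1 to 4, and 102, 176 and 52.3 in P-SSC 1, 2+5 and 4. The 3 groups did not overlap, with graft BM-MSCs in the middle. Sp7 was 8.10-fold higher in graft BM-MSCs than in P-SSCs (log2 difference 3.02, SE 0.58, limma, adjusted p = 0.00478). It was lower by a log2 difference of -1.49 (SE 0.58) in graft BM-MSCs than in BM-MSCs, which did not pass (limma, adjusted p = 0.143). The ratio of Runx2 to Sp7 values, which cancels the size factor of a library, was 1.25 to 2.60 in graft BM-MSCs, 0.158 to 0.305 in BM-MSCs and 0.174 to 0.5 in P-SSCs, so that graft libraries carried more Runx2 per Sp7 than any steady-state library.

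Alpl, which clears pyrophosphate, stood at 3 separate levels. It measured 18840.2, 28354 and 19943 in BM-MSC 1, 2+4 and 3, then 11924, 11904, 5178 and 5789.6 in graft BM-MSC 1 to 4, and 2708, 3125 and 2025 in P-SSC 1, 2+5 and 4. The difference of graft BM-MSCs from P-SSCs was 1.65 (SE 0.34, limma, adjusted p = 0.00661) and that from BM-MSCs was -1.45 (SE 0.34, limma, adjusted p = 0.0290) on the log2 scale. The call against BM-MSCs passed in 10 of 22 other settings. It did not pass without any 1 of the BM-MSC libraries (limma, adjusted p from 0.0694 to 0.130) or with the correction for GC content (log2 difference -0.82, limma, adjusted p = 0.360). Graft BM-MSC 1 and 2 had about the same value, above that of graft BM-MSC 3 and 4.

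Phex, an endopeptidase of osteoblasts and osteocytes that is needed for phosphate balance, was the member with the least group structure. It measured 833, 285 and 569 in BM-MSC 1, 2+4 and 3, then 717, 138 and 240.4 in P-SSC 1, 2+5 and 4, and 961, 234, 1825 and 3686 in graft BM-MSC 1 to 4. All groups overlapped, and graft BM-MSCs held both the highest value and a value below all BM-MSC libraries. None of its differences passed, with log2 differences of 1.94 (SE 0.89) for graft BM-MSCs against P-SSCs, 1.11 (SE 0.89) against BM-MSCs, and -0.83 (SE 0.96) for P-SSCs against BM-MSCs (limma, adjusted p = 0.159, 0.462 and 0.854). Without graft BM-MSC 2 the first of these passed (log2 difference 2.69, limma, adjusted p = 0.0285).

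Ibsp, bone sialoprotein, had the widest span of the 9 genes between the steady-state groups. It measured 170997, 175274 and 142931 in BM-MSC 1, 2+4 and 3 and 1967, 2929.8 and 1625 in P-SSC 1, 2+5 and 4. The graft values, 31590.2, 40535, 60194 and 16821 in graft BM-MSC 1 to 4, lay between these groups without overlap. Ibsp was 77.0-fold lower in P-SSCs than in BM-MSCs (log2 difference -6.27, SE 0.40, limma, adjusted p = 9.47e-06), 16.0-fold higher in graft BM-MSCs than in P-SSCs (log2 difference 4.00, SE 0.37, limma, adjusted p = 6.89e-05) and 4.81-fold lower in graft BM-MSCs than in BM-MSCs (log2 difference -2.27, SE 0.37, limma, adjusted p = 0.00630).

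Spp1, osteopontin, had the highest value of the 9 genes in every library of every group, though only just above Bglap (14354) in P-SSC 2+5. It measured 384182, 265314 and 211157 in BM-MSC 1, 2+4 and 3, then 144184, 158923, 149734 and 94473 in graft BM-MSC 1 to 4, and 20537, 15262 and 13125 in P-SSC 1, 2+5 and 4. The groups did not overlap, and the graft values varied least of the 9 genes (CV 21.1%). Spp1 was 8.37-fold higher in graft BM-MSCs than in P-SSCs (log2 difference 3.07, SE 0.25, limma, adjusted p = 3.47e-05). Against BM-MSCs it was lower by a log2 difference of -1.05 (SE 0.25, limma, adjusted p = 0.0329), or -0.52 relative to the median of all genes. This call passed in 8 of 22 other settings. It did not pass without any 1 of the graft libraries (limma, adjusted p from 0.0511 to 0.0586), or without BM-MSC 1 or BM-MSC 2+4. The highest adjusted p with 1 library left out was 0.127 (limma), and the difference was -0.19 after quantile normalization.

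Dmp1, the osteocyte member of the family, was the most variable among P-SSCs (CV 127%). It measured 5128, 3182 and 1795 in BM-MSC 1, 2+4 and 3, then 2399, 296, 1233 and 1720.1 in graft BM-MSC 1 to 4, and 113, 582 and 19.4 in P-SSC 1, 2+5 and 4. Graft BM-MSC 2 lay below P-SSC 2+5, so those groups overlapped. The rise from P-SSCs to graft BM-MSCs was just outside the threshold (log2 difference 3.32, SE 1.04, limma, adjusted p = 0.0507), and the fall from BM-MSCs to P-SSCs was inside it (log2 difference -4.80, SE 1.11, limma, adjusted p = 0.0205). Without P-SSC 2+5 or graft BM-MSC 2 the rise passed (limma, adjusted p = 0.0123 and 0.0248), and the fall did not pass without BM-MSC 1, BM-MSC 2+4, P-SSC 1 or P-SSC 4 (limma, adjusted p from 0.0591 to 0.0933). Phex and Dmp1 did not keep a constant proportion: the ratio of Phex to Dmp1 values was 0.0895 to 0.317 in BM-MSCs and 0.401 to 2.14 in graft BM-MSCs, and in P-SSCs it ran from 0.236 to 12.4.

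Bglap and Bglap2, the osteocalcin genes of mature osteoblasts, were high in BM-MSCs, and their values in P-SSCs and graft BM-MSCs overlapped. Bglap measured 19562, 52303 and 66165 in BM-MSC 1, 2+4 and 3, then 11676, 14354 and 2518 in P-SSC 1, 2+5 and 4, and 10983, 10529, 4013 and 29627 in graft BM-MSC 1 to 4. Graft and P-SSC values were mixed, and graft BM-MSC 4 lay above BM-MSC 1. The difference of graft BM-MSCs from P-SSCs was 0.53 on the log2 scale (95% interval -1.13 to 2.19, limma, adjusted p = 0.653) and that from BM-MSCs was -1.91 (95% interval -3.57 to -0.25, limma, adjusted p = 0.144). P-SSCs lay below BM-MSCs without overlap, by -2.44 (SE 0.80, limma, adjusted p = 0.0960), which did not pass. The sign of the first difference turned without P-SSC 4, to -0.26, while against P-SSC 4 alone, the P-SSC library with GC-rich genes high like the graft, it was 2.10 (limma, adjusted p = 0.290), and with the GC correction it was 1.256 and did not pass either.

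Bglap2 measured 9185, 25523 and 32006 in BM-MSC 1, 2+4 and 3, then 7182, 8126 and 1421 in P-SSC 1, 2+5 and 4, and 4182, 5291, 1892 and 13500.4 in graft BM-MSC 1 to 4. It rose and fell with Bglap from library to library, and none of its differences passed (0.16, -2.01 and -2.17 on the log2 scale for graft minus P-SSC, graft minus BM-MSC and P-SSC minus BM-MSC libraries, limma, adjusted p = 0.905, 0.132 and 0.152). The first of these turned to -0.65 without P-SSC 4 and to -0.33 without graft BM-MSC 4, and it was 1.78 against P-SSC 4 alone and 0.87 with the GC correction (limma, adjusted p = 0.395 and 0.496). The ratio of Bglap2 to Bglap was 0.470 to 0.488 in BM-MSCs, 0.381 to 0.502 in graft BM-MSCs and 0.564 to 0.615 in P-SSCs. The aligned transcripts of both genes are identical at 98.6% of bases, and 56.3% of the 100-base windows of Bglap also occur in Bglap2, so the split of reads between them is uncertain. Their sum is less so, at 68248 ± 35689 (SD, n = 3) in BM-MSCs, 15092 ± 9827 (SD, n = 3) in P-SSCs and 20004 ± 16066 (SD, n = 4) in graft BM-MSCs.

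**Figure D2:**
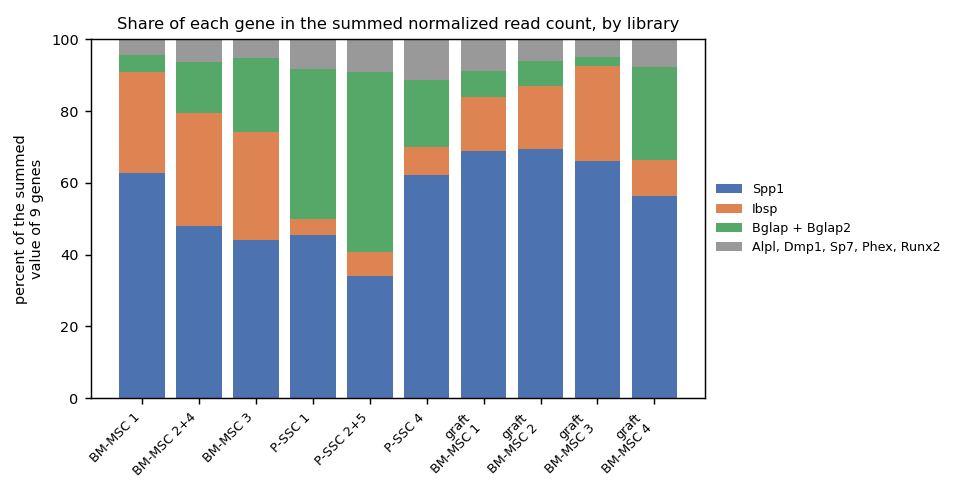
Percent of the summed normalized read count of the 9 genes (vertical axis, values not divided by length) taken by Spp1, by Ibsp, by Bglap and Bglap2 together and by the other 5 genes, with 1 stacked bar per library. Osteocalcin takes 41.9% and 50.3% in P-SSC 1 and 2+5 but 18.7% in P-SSC 4, and in the graft from 2.60% in library 3 to 25.8% in library 4.

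The make-up of the summed value thus differed between libraries of one group as well as between groups. Osteocalcin took 4.70%, 14.1% and 20.6% in BM-MSC 1, 2+4 and 3. Spp1 took 56.5% to 69.4% in the graft, 44.2% to 62.9% in BM-MSCs and 34.1% to 62.3% in P-SSCs. The ratio of Bglap to Ibsp was 0.114 to 0.463 in BM-MSCs and 1.55 to 5.94 in P-SSCs, which do not overlap, and from 0.0667 to 1.76 in graft BM-MSCs. Within the graft, library 4 had the lowest Ibsp and Spp1 but the highest Bglap, Bglap2 and Phex of the 4, and library 2 had the lowest Runx2, Sp7, Phex and Dmp1. Library 2 also had the fewest genes with a read (9308). P-SSC 4 was the lowest of the 10 libraries in 8 of the 9 genes.

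Counted over the 9 genes, 5 were called higher in graft BM-MSCs than in P-SSCs (Runx2, Sp7, Alpl, Ibsp and Spp1) and 0 lower at a limma adjusted p under 0.05. Over all 13644 genes tested, 18.1% were called in this comparison, 6.08% higher and 12.0% lower. All 9 log2 differences were above 0, with a median of 3.02 against -0.47 over all genes, and 6 had an unadjusted p under 0.05. Graft and P-SSC values were fully separate for 5 members, all with the graft above, and for 26.6% of all genes (8.06% with the graft above and 18.5% with it below). Quantile normalization turned the split over all genes from 830 higher and 1634 lower to 1247 and 1241, and it called 6 members, again all higher. Restricted to the libraries with GC-rich genes high, that is the 4 graft libraries and P-SSC 4 alone, whose spread is then taken from the other groups, 6 were called higher, with log2 differences of 5.54 for Runx2, 3.91 for Sp7, 2.00 for Alpl, 4.38 for Ibsp, 3.35 for Spp1 and 5.77 for Dmp1.

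Against BM-MSCs, 3 of the 9 genes were called lower in graft BM-MSCs (Ibsp, Alpl and Spp1) and 0 higher, where 7.67% of all genes were called (2.61% higher and 5.06% lower). The median difference was -1.48 against -0.53 over all genes, 7 members had an unadjusted p under 0.05, and 5 did not overlap between groups, compared with 25.0% of all genes (10.3% with the graft above and 14.7% with it below). Of these 5, Runx2 lay above in the graft and Sp7, Alpl, Ibsp and Spp1 below. This count depended on the scaling: it was 1 (Ibsp) after quantile normalization and 0 after a correction for GC content, where the median of all genes was -0.17 and -0.02 and the log2 differences were -1.49 and -1.83 for Ibsp, -1.08 and -0.82 for Alpl and -0.19 and -0.71 for Spp1. It was also 1 with edgeR and without BM-MSC 1, BM-MSC 2+4, graft BM-MSC 3 or graft BM-MSC 4, and in each of these cases Ibsp was the gene called. With DESeq2, 4 were called. Over all genes the split turned from 356 higher and 690 lower to 588 and 435 after quantile normalization and 619 and 392 after the GC correction.

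P-SSCs were below BM-MSCs for all 9 genes, and 6 were called lower (Runx2, Sp7, Alpl, Ibsp, Spp1 and Dmp1), where 9.15% of all genes were called (4.57% higher and 4.58% lower). The differences were -4.16 (SE 0.50) for Runx2, -4.51 (SE 0.62) for Sp7, -3.09 (SE 0.36) for Alpl and -4.12 (SE 0.27) for Spp1 on the log2 scale (limma, adjusted p = 0.000396, 0.000860, 0.000350 and 1.08e-05). The median of the 9 genes was -4.12 and that of all genes was 0.00. Groups did not overlap for 8 members, all but Phex, and for 30.9% of all genes (15.1% with P-SSCs above and 15.8% with them below). Within the 5 libraries with GC-rich genes low, where P-SSC 1 and 2+5 face the 3 BM-MSC libraries, 5 were called, with -4.09 for Runx2, -4.07 for Sp7, -2.92 for Alpl, -6.08 for Ibsp and -3.97 for Spp1, and Dmp1 at -3.58 did not pass (limma, adjusted p = 0.0636). The 3 comparisons share libraries and are not independent of each other.

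**Figure D3:**
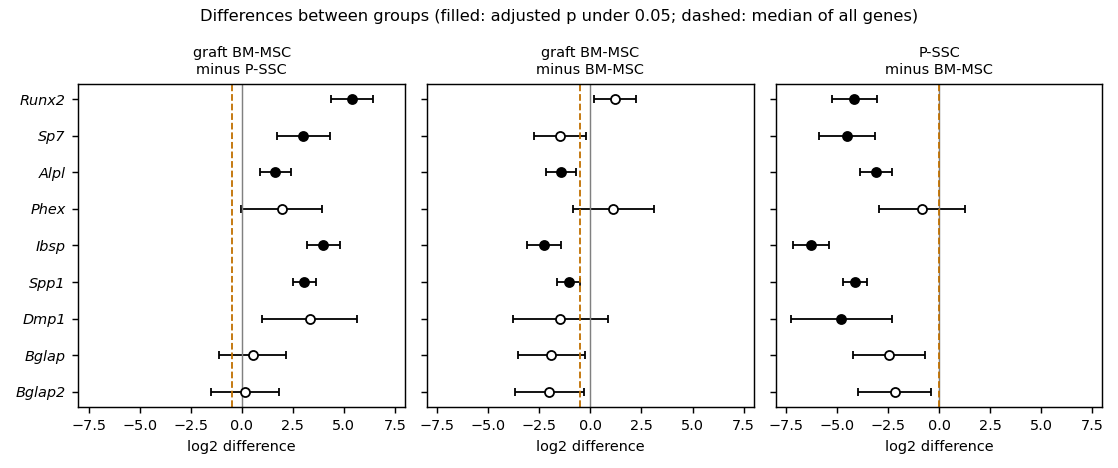
Log2 difference of each of the 9 genes in the 3 comparisons (horizontal axis) with its 95% interval. Filled points have an adjusted p under 0.05, and the dashed line marks the median of all genes. All 9 points lie above 0 for graft BM-MSCs minus P-SSCs and below 0 for P-SSCs minus BM-MSCs, while Runx2 and Phex lie above 0 and the other 7 below 0 for graft BM-MSCs minus BM-MSCs.

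Markers of other cells moved with some of these differences. The summed value of 8 cartilage genes was 36216 to 80800.5 in BM-MSCs, 656 to 3884 in graft BM-MSCs and 734 to 1986 in P-SSCs, and Acan, Col9a1, Col9a3, Col10a1, Matn3 and Cnmd were listed at 0 in all 4 graft libraries. Of these, Col10a1 overlapped between the marrow groups (212 ± 367 in BM-MSCs, SD, n = 3). Sox9, of the same list, had 39.2 ± 23.2 (SD, n = 3) in BM-MSCs against 505 ± 362 (SD, n = 4) in the graft without overlap, which did not pass (log2 difference 3.41, limma, adjusted p = 0.0946). Erythroid genes summed to 58705 to 205924 in BM-MSCs, 1483 to 27755 in graft BM-MSCs and 202 to 1407 in P-SSCs, and neutrophil genes to 25830 to 73653, 5339 to 98079 and 11.6 to 110.1. Mpo was listed at 0 in all P-SSC and all graft libraries. It also overlapped between the marrow groups (2268 ± 3928 in BM-MSCs, SD, n = 3) and did not pass (limma, adjusted p = 0.323). Macrophage genes summed to 3981 to 16399, 1374 to 13401 and 455 to 2283 in the same order. The endothelial genes Cdh5 and Emcn summed to 24.3 to 81.5 in BM-MSCs, 0 in the graft and 2.08 to 58.6 in P-SSCs. Cdh5 was listed at 0 in all BM-MSC libraries as well, and Emcn in all P-SSC libraries. The 3 osteoclast genes in the table (Acp5, Ctsk and Mmp9), markers of cells that also make Spp1, summed to 6941 to 9211, 6600.2 to 10765 and 5340.1 to 8381. The sums overlapped between all groups but mainly follow Ctsk, with means of 4608 in BM-MSCs, 7246 in graft BM-MSCs and 6828 in P-SSCs. Of the 3 genes, Mmp9 was higher in graft BM-MSCs than in P-SSCs (log2 difference 9.54, limma, adjusted p = 2.57e-05). Acp5 was at 57.4 in graft BM-MSCs and 297 in P-SSCs without overlap (log2 difference -3.21), Ctsk differed by 0.05, and neither passed (limma, adjusted p = 0.0902 and 0.922). The part of these cells in the differences of the 9 genes was not tested.

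The other genes of the mineralization pathway were read from 4 lists with 33 genes, of which 29 were in the table and 28 were tested. Bglap3, Phospho1, Msx2 and Sost were not analysed here, and Fgf23 had a mean too low to test. In graft BM-MSCs against P-SSCs 6 were higher and 5 lower, where 6.08% and 12.0% of all genes were. Against BM-MSCs 1 was higher and 5 lower (2.61% and 5.06% of all genes). In P-SSCs against BM-MSCs 2 were higher and 4 lower (4.57% and 4.58% of all genes). The median log2 difference of the 28 genes was 0.26, -0.58 and -0.89 in these comparisons. The count against BM-MSCs was 3 with edgeR, after the GC correction and without BM-MSC 1 or P-SSC 1, and 2 without BM-MSC 2+4 or BM-MSC 3.

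Among 7 other matrix genes of bone, 3 fell in graft BM-MSCs against both steady-state groups and 0 rose. Over all genes, 12.0% were called lower against P-SSCs and 5.06% against BM-MSCs. Col1a1, which encodes the main chain of type I collagen, had 373972, 1005119 and 786064 in BM-MSC 1, 2+4 and 3, then 259134, 401795 and 185603 in P-SSC 1, 2+5 and 4, and 14762, 9531, 10399 and 33746 in graft BM-MSC 1 to 4. All graft libraries were far below all steady-state libraries, in contrast to Spp1 and Ibsp, which in the graft were above P-SSCs. The log2 difference of Col1a1 was -4.17 (SE 0.47) against P-SSCs and -5.48 (SE 0.47) against BM-MSCs (limma, adjusted p = 0.000202 and 0.000799). Col1a2, the other chain, differed by -2.46 and -3.38, and Sparc, osteonectin, by -1.42 and -1.53 (limma, all 4 adjusted p under 0.05). The ratio of Col1a1 to Ibsp was 114 to 137 in P-SSCs, 2.19 to 5.73 in BM-MSCs and 0.173 to 2.01 in graft BM-MSCs, so the 3 groups were apart. Ifitm5, a membrane protein of mineralizing osteoblasts, did not pass in any comparison.

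Of 8 genes of phosphate and mineral chemistry, Enpp1 and Smpd3 were called. Over all genes, 18.1% were called for graft BM-MSCs against P-SSCs, 7.67% against BM-MSCs and 9.15% for P-SSCs against BM-MSCs. Enpp1, which makes pyrophosphate and so opposes Alpl, had 116, 26.8 and 363 in P-SSC 1, 2+5 and 4, 2177, 1192 and 1769 in BM-MSC 1, 2+4 and 3 and 1390.3, 568, 1579 and 2069 in graft BM-MSC 1 to 4. All P-SSC libraries were below all libraries of both marrow groups. The log2 difference was 3.58 for graft BM-MSCs minus P-SSCs (SE 0.77, limma, adjusted p = 0.00885) and -3.97 for P-SSCs minus BM-MSCs (SE 0.83, limma, adjusted p = 0.0108). Smpd3, a sphingomyelinase that is needed for normal mineralization, had 109.6, 12.6, 3.02 and 596 in graft BM-MSC 1 to 4 against 5519.7, 6679 and 10638 in P-SSC 1, 2+5 and 4, and was lower in graft BM-MSCs than in P-SSCs by a log2 difference of -7.39 and than in BM-MSCs by -5.70 (limma, adjusted p = 0.00364 and 0.0319).

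Of 10 other regulators of the lineage, 4 rose from P-SSCs to graft BM-MSCs and 0 fell, where 6.08% of all genes rose and 12.0% fell. Of the regulators, the vitamin D receptor Vdr rose by 3.31, the parathyroid hormone receptor Pth1r by 4.25 and the homeobox gene Dlx5 by 1.19 (limma, all 3 adjusted p under 0.05). Pth1r varied with the GC split among P-SSCs, with 173 and 90.4 in P-SSC 1 and 2+5 but 1470 in P-SSC 4. In graft BM-MSC 1 to 4 it had 6068, 3452, 7633 and 5573. Dlx5 was the 1 regulator called between graft BM-MSCs and BM-MSCs, at -1.28 (SE 0.33, limma, adjusted p = 0.0435). In P-SSCs against BM-MSCs 3 were lower, among them Vdr (-4.07) and Dlx5 (-2.46), and Atf4, a factor of the amino acid response in osteoblasts, was higher (1.10, limma, adjusted p = 0.0203).

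Of 3 osteocyte genes tested besides Dmp1 and Phex, Pdpn and Irx5 were called for graft BM-MSCs against P-SSCs, where 18.1% of all genes were. Pdpn, podoplanin of early osteocytes and also of fibroblasts, had 2357, 2656 and 1342 in P-SSC 1, 2+5 and 4, and at most 47.3 in any marrow library. It was lower in graft BM-MSCs than in P-SSCs by a log2 difference of -7.12 and higher in P-SSCs than in BM-MSCs by 7.44 (limma, adjusted p = 0.00956 and 0.0167), opposite in sign to Dmp1 in both. The homeobox gene Irx5 had 440.1, 428, 257 and 534 in graft BM-MSC 1 to 4 and at most 33.7 in any steady-state library, with log2 differences of 7.80 against P-SSCs and 4.65 against BM-MSCs (limma, adjusted p = 0.00108 and 0.0394). Since Irx5 was at or near 0 in P-SSCs, the size of that difference depends on the pseudocount of 1. Irx5 has a GC content of 65.4%, which puts it in the GC-rich class that defines the split and that all graft libraries had high. It was the 1 gene called higher against BM-MSCs, and with a pseudocount of 0.1, the GC correction or edgeR 0 of the 28 genes were called higher there. The same held when any 1 BM-MSC library, P-SSC 1 or graft BM-MSC 1, 2 or 4 was left out.

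**Figure D4:**
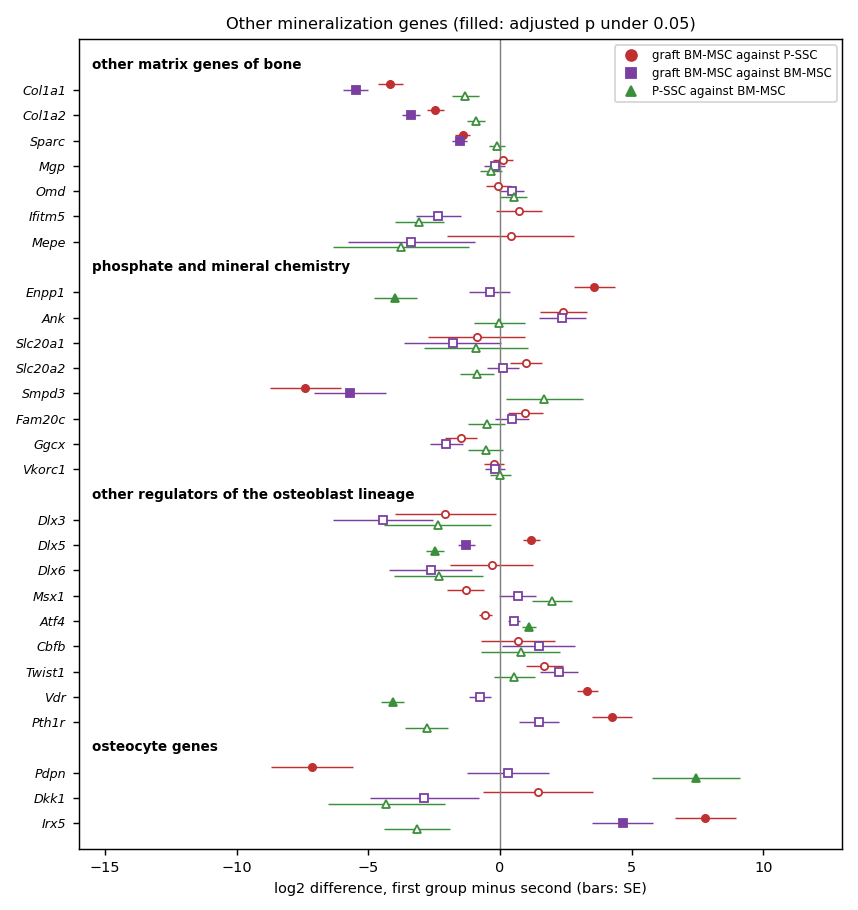
Log2 difference (horizontal axis, first group minus second, bars are SE) of other mineralization genes, ordered by list, in the 3 comparisons, with filled symbols for an adjusted p under 0.05. Col1a1, Col1a2 and Sparc lie below 0 in both graft comparisons, and Vdr and Dlx5 lie above 0 against P-SSCs and below 0 for P-SSCs against BM-MSCs.

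The chromosome 5 cluster was read as a whole, since the members Dmp1, Ibsp and Spp1 share it with other genes. From 150000 bases before to 150000 bases after it, 9 genes were in the table and 7 were tested. Sparcl1 lies before Dmp1 on the other strand, with its lowest coordinate, the end of the gene, 124 kb from the start of Dmp1. It went against its neighbours: it had 6928, 7091 and 6694 in P-SSC 1, 2+5 and 4 and 37.9, 0, 0 and 0.863 in graft BM-MSC 1 to 4 (log2 difference -11.21, limma, adjusted p = 0.00285). Mepe, another SIBLING gene of osteocytes between Ibsp and Spp1, had 0.40 for graft BM-MSCs against P-SSCs and was listed at 0 in P-SSC 4 and graft BM-MSC 2, and none of its differences passed. Pkd2, the next protein-coding gene after Spp1, did not pass in any comparison. Gm42793, a transcript that lies within Spp1 on its strand, had at most 29.3 and was not tested, and Dspp was not analysed here.

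**Figure D5:**
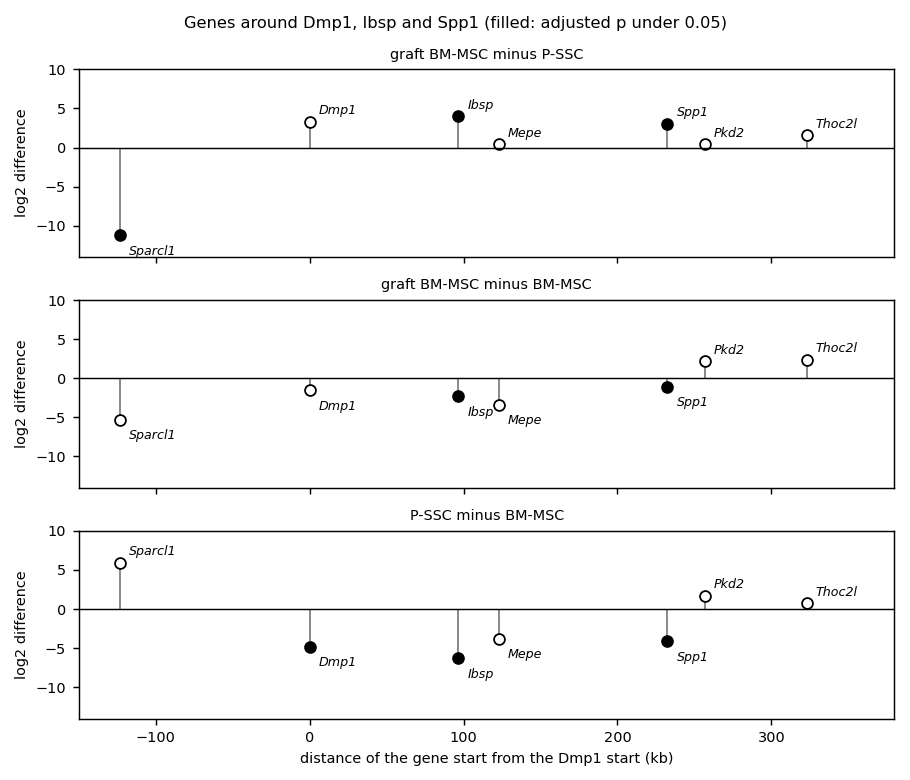
Log2 difference (vertical axis) of the 7 genes tested around Dmp1, Ibsp and Spp1, plotted by the distance of each gene's lowest coordinate from that of Dmp1 in kb (horizontal axis), with 1 panel per comparison and filled points for an adjusted p under 0.05. The lowest coordinate is the start of a gene on the plus strand and, for Sparcl1, the end. Ibsp and Spp1 are filled in all 3 panels, and Sparcl1 has the opposite sign from Ibsp in the first and last panels.

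The genes most like each member over the 10 libraries were taken from 9545 other genes with a mean of at least 100, by Pearson's r of log2(value + 1). The libraries share groups, depth and the GC split, so r is a description without a test. Ibsp and Spp1 had 2 of 3 nearest genes in common, Il34 (r = 0.99 with each) and Serpine2 (0.98 and 0.99), with H2-D1 (0.99) and the iron exporter Slc40a1 (0.99) completing the lists. Bglap and Bglap2 were nearest to each other (0.99) and then to Ifitm5 (0.95 with each), followed by Fbn2 and Triap1 (0.91 each). The genes nearest to Sp7 included Ldhb (0.98) and Tnc (0.97), and Dmp1 was nearest to Rmdn1 (0.95), Sp7 (0.93) and Unc93b1 (0.93). Alpl was nearest to Ehd3 (0.98), Itm2c (0.98) and Dapk2 (0.97), and Runx2 to Ptchd1 (0.99), Enpp4 (0.98) and Fzd5 (0.98). Phex had no gene above 0.88, its nearest being Dgkh (0.88), Larp1 (0.86) and Abcd2 (0.86).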

How the data were processed

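Cells were sorted by the authors, RNA was sequenced as poly-A libraries, and some steady-state libraries combine a pair of mice. The methods name STAR, the genome GRCm38 and DESeq2, whereas the submitters' processing notes name GRCm39, STAR 2.5, featureCounts (Subread 1.4.6) and DESeq2 1.26.0. Both are given because they differ, and the strand setting of the counting is not given in the sources used here. The deposited signal values are reads per gene divided by a size factor, computed by the authors. The steps between values gave whole reads in 100% of cases (tolerance 0.01), but in graft BM-MSC 3 a read was worth 1.01, too near 1 for this check to tell recovered reads from the values themselves, and its read total and the count tests rest on that step. The steady-state libraries were analysed again from another series.

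Coordinates and GC content came from GENCODE M21 (GRCm38), matched by Ensembl ID for 15052 genes (26 unmatched). Values were tested as log2(value + 1), which understates changes of low genes, with limma 3.58.1 (1 mean per group, empirical Bayes with trend, two-sided) over 13644 genes with a mean of at least 10. P-values were adjusted by Benjamini-Hochberg over all genes tested, and called means an adjusted p under 0.05. edgeR 4.0.16 and DESeq2 1.42.0 were run on recovered reads as alternatives. The methods were tested on simulated data, where DESeq2 made more false calls than limma or edgeR. Of the genes made to change there, limma called 29% against P-SSCs and 30% against BM-MSCs. The shares were 28% and 26.5% for edgeR and 54% and 53.5% for DESeq2. A difference that did not pass is thus not evidence of no change. Named genes were the 9 members, up to 4 called genes with the lowest adjusted p of each list and comparison, defining genes listed at 0, and the 3 genes most like each member, apart from 1 gene that is counted with its list but is not reported here. Genes of the chromosome 5 cluster, Ifitm5 and the genes listed as not called were named after their values were seen. The members and lists were chosen with earlier results of these data known.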

Additional observations from a re-analysis of the deposited data

Results flagged for a closer look

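In groups of 4 samples the gap of the highest or lowest sample to its nearest neighbour was set against the range of the group, for 37 genes. Dlx6, a homeobox gene of the osteoblast lineage, stood out in graft BM-MSCs, where it had normalized read counts of 19.2, 115.5, 0 and 4.32 in libraries 1 to 4. The gap of library 2 was 0.834 of the range, above the 95% critical value of Dixon for 4 samples. By chance about 1 in 20 groups would be marked in this way, and 1 of the 37 genes was. None of the 9 osteoblast and mineralization genes was marked in the graft, and groups of 3 were not examined.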

How the results depend on the processing

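Each log2 difference of the 9 genes was recomputed under up to 23 other settings. Of 612 recomputed values, 542 kept their direction and side of the threshold, 16 newly passed, 48 no longer passed and 6 turned in sign, none of the last called. Leaving out a library of the group not compared leaves a difference unchanged and can only move its p-value. Such settings are part of this tally and of the counts of other settings passed given above. In the comparisons with P-SSCs, the fit within a side of the GC split repeats the fit with the split as a covariate. For graft BM-MSCs against BM-MSCs, the count of 3 members became 1 with quantile normalization, with only these groups in the fit and with edgeR. It became 0 with the GC correction or with the GC split as a covariate. This split was read from the values, and the labels name no batch. The covariate rests on P-SSC 4 alone to join both groups, and with it Bglap was 0.45, Bglap2 0.42 and Dmp1 2.19. For graft BM-MSCs against P-SSCs, Bglap ranged from -0.26 (without P-SSC 4) to 1.01 when 1 library was left out, and Bglap2 from -0.65 (without P-SSC 4) to 0.62, with -0.33 without graft BM-MSC 4. Against P-SSC 4 alone, which is on the same side of the GC split as the graft, they were 2.10 and 1.78. Leaving out 1 library at a time gave 5 to 7 members for graft BM-MSCs against P-SSCs, 1 to 3 against BM-MSCs and 5 to 6 for P-SSCs against BM-MSCs, and 9 to 14, 2 to 9 and 4 to 7 of the other mineralization genes. Of the latter, 5 of 11 were called for graft BM-MSCs against P-SSCs with the GC split as a covariate, and against BM-MSCs 3 of 6 with the GC correction, 3 with edgeR and 0 with the covariate. Where no construction shows it, the cause was not tested. Replicate numbers in the titles are shared, and the sources do not say whether same-numbered libraries share a mouse. Deviations of same-numbered libraries had correlations of -0.019 to 0.030 over 5 pairs. Of these, only the pair of BM-MSC 1 and P-SSC 1 is of steady-state libraries alone. Such correlations cannot tell whether the numbers pair samples. With a replicate block, members called were 5, 0 and 2 in the 3 comparisons in the order above (of the 5, 4 were shared with the main result, Alpl was lost with limma adjusted p = 0.0845 and Dmp1 gained), and 1, 0 and 1 of the other genes. The block with the GC correction gave 5 (again without Alpl, limma adjusted p = 0.0541), 0 and 1 members and 4, 0 and 1 other genes. Within either side of the GC split, graft BM-MSCs and BM-MSCs cannot be compared. Each of the 9 genes had at least 20 reads in every library.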
